A study of Homo sapiens with 10 samples.

Results

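The genes described here are 46 nuclear-encoded subunits of the mitochondrial respiratory complexes I, II and III, of 58302 genes in each table. They were taken as a fixed list of gene symbols, matched to the Ensembl gene identifiers of the tables, and all 46 were found, with 35 in complex I, 4 in complex II and 7 in complex III. RNA-Seq was performed on 10 libraries of human hepatocellular carcinoma (HCC) cell lines, 1 library per condition. PSPC1 is a paraspeckle protein and PTK6 a nonreceptor tyrosine kinase that phosphorylates it. The study asked how PSPC1 governs where PTK6 and β-catenin lie in the cell and how this bears on tumor progression. RNA-Seq was among its assays. In SK-hep1, mock control cells were set beside cells overexpressing PSPC1, PSPC1 with PTK6 (PSPC1/PTK6), PSPC1 with a tyrosine changed to phenylalanine (PSPC1-Y523F), and PSPC1-Y523F with PTK6 (PSPC1-Y523F/PTK6). In Mahlavu, mock control cells were set beside cells overexpressing the C-terminal part of PSPC1 (PSPC1-CT131) or that part with a mutated nuclear localization sequence (Mut-NLS-CT131). In Huh-7, untreated cells were set beside cells given hepatocyte growth factor (HGF) at 10 ng/ml for 48 h. No condition had a replicate, so no difference could be tested and no p-value is given. Intervals are 95% and cover counting error only.

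Complex I takes electrons from NADH and complex II from succinate, and both hand them to ubiquinone. Complex III passes them on to cytochrome c, and complexes I and III pump protons while doing so. The subunits of complex II are all encoded in the nucleus, whereas complexes I and III also hold subunits encoded by the mitochondrial genome. Nuclear respiratory factor 1 (NRF1), the ETS-family factor GABP and YY1 are known regulators of nuclear genes for respiratory subunits.

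Promoter sequence was at hand for 39 of the 46 members (RefSeq, GRCh38.p14, from 250 bases before to 50 bases after the gene start). The NRF1 motif, searched as GCGCATGC on both strands, was in 7 of these 39 promoters (17.9%), against 4.3% of 15843 promoters of protein-coding genes. The ETS/GABP motif CCGGAAG was in 9 (23.1%, against 14.2%) and the YY1 motif AAGATGGC in 8 (20.5%, against 3.9%). At least 1 of the 3 motifs was in 19 (48.7%, against 20.3%). A match is a description of the letters and was not tested as a binding site. The next lines show the NRF1 match, in capitals, in 4 members of differing behaviour: SDHB and NDUFS6 were lower with PSPC1-Y523F, SDHD was lower in the PSPC1-CT131 library, and NDUFB4 did not pass 1.5-fold in any comparison with a control. Each runs 5′ to 3′ on the strand of the gene.
SDHB (chr1:17054204-17054253, minus strand, match at -200 from the start): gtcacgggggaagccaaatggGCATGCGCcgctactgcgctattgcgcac
NDUFS6 (chr5:1801340-1801389, plus strand, match at -46): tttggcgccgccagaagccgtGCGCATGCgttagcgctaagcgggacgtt
SDHD (chr11:112086742-112086791, plus strand, match at -110): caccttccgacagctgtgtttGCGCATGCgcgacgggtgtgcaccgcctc
NDUFB4 (chr3:120596156-120596205, plus strand, match at -159): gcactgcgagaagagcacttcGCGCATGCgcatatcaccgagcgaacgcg
In SDHD and NDUFB4 the motif also matched on the other strand, at -108 and -157, overlapping the match shown. Of the 7 members at least 1.5-fold lower with PSPC1-Y523F, 5 held at least 1 of the motifs, against 13 of 29 others with a promoter entry. Of the 9 such members with an entry in the PSPC1-CT131 library, 5 held one, against 13 of 27 others.

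Each library held between 15245935 and 24278662 reads on genes, of which the 46 members took between 63186 and 114501. SK-hep1 and Mahlavu showed 1 of 9 hepatocyte markers, SERPINA1, at 1 FPKM or more (fragments per kilobase of gene, scaled to library size). ALB was at 0 in all 8 of their libraries, which showed 0 of 8 endothelial markers. Huh-7 showed 9 of 9 hepatocyte markers and 1 or 2 of 8 endothelial markers. Of 4 leukocyte markers, SK-hep1 and Mahlavu showed 1, CD14, and Huh-7 showed 2, CD14 and LYZ. Of 3 muscle and fat markers, only DES reached 1 FPKM, at 1.56 FPKM in Mut-NLS-CT131. PSPC1 had 0 reads in SK-hep1 mock, which allows up to 3 reads, and 2.28 to 70.9 FPKM in the 4 overexpressing libraries. It was at 7.01 FPKM with PSPC1, 26.4 with PSPC1/PTK6, 2.28 with PSPC1-Y523F and 70.9 with PSPC1-Y523F/PTK6. PTK6 was at 16.7 and 10.5 FPKM in the 2 PTK6 libraries against 4.09 to 5.69 FPKM in the other 3. In Mahlavu, PSPC1 was highest in mock (47.3 FPKM), followed by the PSPC1-CT131 library (30.8 FPKM) and the Mut-NLS-CT131 library (22.5 FPKM). The gene totals therefore do not check those 2 labels, and both names stand throughout for the libraries so labelled. In such bulk RNA, less RNA per cell and fewer cells cannot be told apart.

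Levels are given first, as FPKM as deposited. The highest of all members was CYC1, cytochrome c1 of complex III, which stood at 566, 509, 425, 537 and 550 FPKM in SK-hep1, at 574, 599 and 527 FPKM in Mahlavu and at 222 and 220 FPKM in Huh-7. Here and throughout, the libraries of a line are given in the order in which they were introduced, control first. Huh-7 was thus below the other lines, although its tables were made separately. The other complex III subunits ranged down to UQCRFS1, the Rieske iron-sulfur protein, at 28.9, 38.4, 40.8, 30.5 and 30.8 FPKM in SK-hep1, 41.5, 36.1 and 39.5 FPKM in Mahlavu, and 34.1 and 33.2 FPKM in Huh-7. Between them came the core protein UQCRC1 at a median over 10 libraries of 338 FPKM, the hinge protein UQCRH at 308 FPKM, the second core protein UQCRC2 at 127 FPKM, UQCRQ at 60.0 FPKM and UQCRB at 37.2 FPKM.

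In complex II, SDHA, the flavoprotein that oxidizes succinate, was highest. It was at 156, 175, 163, 140 and 135 FPKM in SK-hep1, 283, 278 and 397 FPKM in Mahlavu, and 134 and 139 FPKM in Huh-7. All 3 Mahlavu libraries were above the other 7. SDHA has 4 named pseudogenes, which held 4902 reads over the 8 SK-hep1 and Mahlavu libraries against 50922 on SDHA, so its level carries that uncertainty. The iron-sulfur subunit SDHB followed at a median of 110 FPKM and the membrane anchor SDHC at 57.8 FPKM. The second anchor, SDHD, was lowest, at 12.5, 14.4, 22.0, 11.9 and 11.3 FPKM in SK-hep1, 56.5, 24.8 and 54.2 FPKM in Mahlavu, and 43.9 and 46.5 FPKM in Huh-7.

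Complex I spread over the widest range. NDUFS5, an accessory subunit, was highest by its median and stood at 418, 394, 300, 372 and 336 FPKM in SK-hep1, 301, 187 and 259 FPKM in Mahlavu, and 177 and 183 FPKM in Huh-7. The accessory subunit NDUFS6 had a median of 272 FPKM. Of the catalytic core, NDUFV1, which binds the flavin that accepts electrons from NADH, had a median of 257 FPKM, NDUFS8 211 FPKM, NDUFS3 94.4 FPKM and NDUFS1 51.6 FPKM. NDUFV1 was higher in Huh-7, at 769 and 816 FPKM, than in SK-hep1 and Mahlavu, at 218 to 267 FPKM. The lowest member was NDUFA7, with 1 to 8 reads per library and 0.69, 0.277, 0.391, 0.266 and 0.154 FPKM in SK-hep1. It was at 0.494, 0.189 and 0.196 FPKM in Mahlavu and at 0.457 and 0.123 FPKM in Huh-7. Its Wilson interval in SK-hep1 mock was 0.35 to 1.36 FPKM, so the libraries could not be ordered at this depth.

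**Figure D1:**
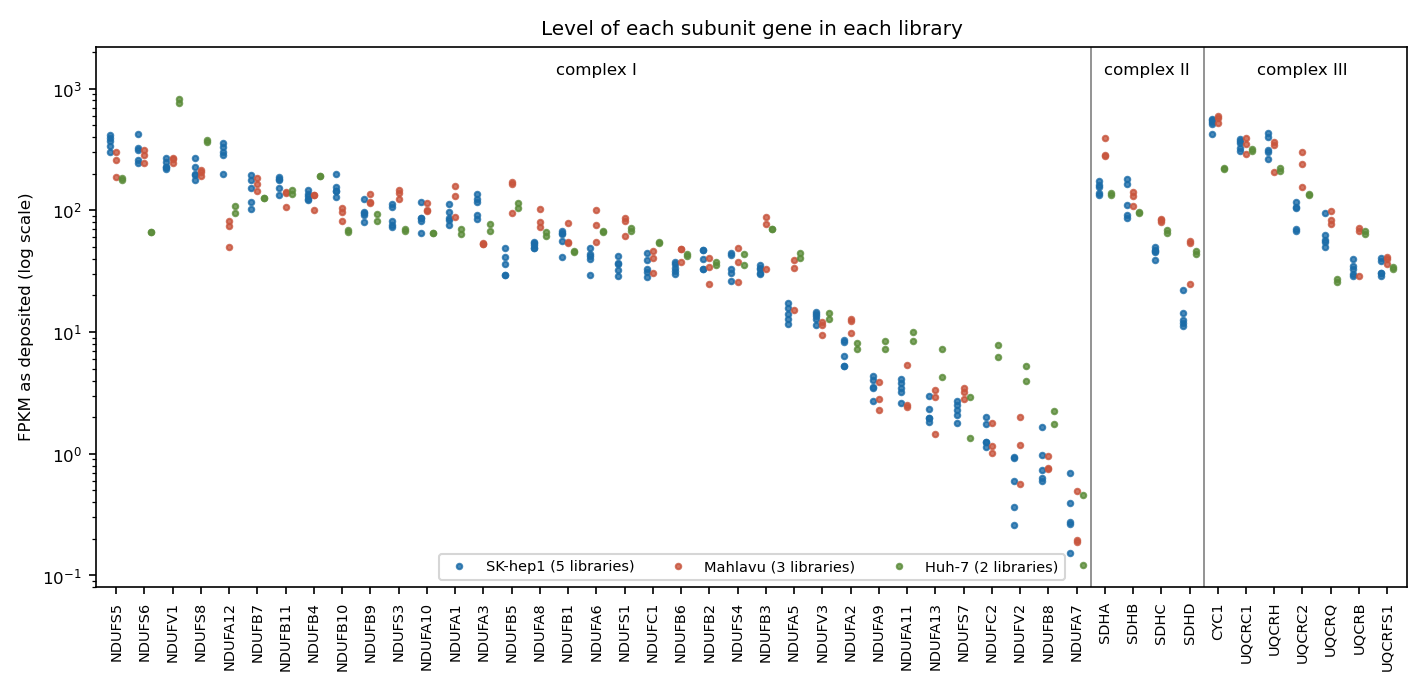
FPKM as deposited (log scale) of each of the 46 subunit genes, ordered by complex and by median, with 1 point per library and colours for the 3 cell lines. The 9 members under a median of 10 FPKM are all in complex I, and CYC1 is the highest.

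All 9 members with a median under 10 FPKM were in complex I, and they were NDUFA2, NDUFA7, NDUFA9, NDUFA11, NDUFA13, NDUFB8, NDUFC2, NDUFS7 and NDUFV2. Their proteins include the core subunits NDUFS7 and NDUFV2, which each carry an iron-sulfur cluster. In GENCODE 29, between 17.03% and 85.17% of the coding bases of these 9 lay under an exon of another annotated gene on either strand, with a median of 67.86%. Of the other 37 members, 5 had any such overlap, and the largest was 47.72%, in SDHD. For NDUFB8 (85.17%) the overlapping gene was AL133352.1, for NDUFV2 (84.69%) AP005263.1, for NDUFA7 (78.29%) AC010323.1 and for NDUFC2 (76.92%) the readthrough gene NDUFC2-KCTD14, all on the same strand and each at a median of 0 FPKM. For NDUFS7 the overlap of 48.45% was with the antisense gene AC005329.1, and for NDUFA2 the overlap of 17.03% was with IK on the other strand. Reads were counted per gene with HTSeq, which in its usual modes leaves out a read that could belong to more than one gene. Its mode and strand setting are not given in the sources used here, and the part of this overlap in the low levels was not tested. The levels of these 9 are therefore uncertain. NDUFV2 also has a pseudogene that held 123 reads over 8 libraries, against 91 on NDUFV2.

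**Figure D2:**
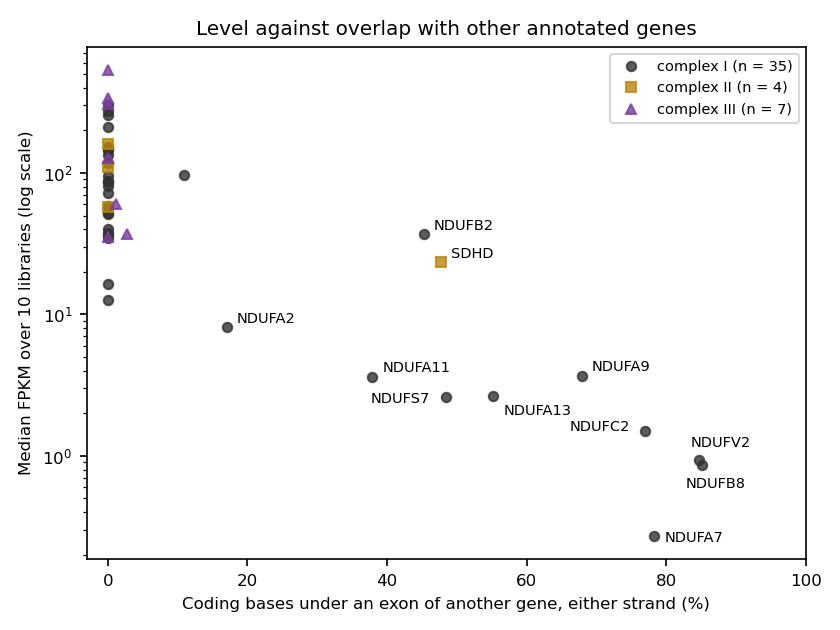
Median FPKM over 10 libraries (log scale) of each member against the percentage of its coding bases that lie under an exon of another gene, with names for members of at least 17.03%. The 9 members under 10 FPKM all have an overlap, whereas 32 of the other 37 lie at 0.

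Fold changes were computed as the difference of log2(FPKM + 1) after quantile normalization, for genes whose mean over both libraries was 1 FPKM or more. A member is counted as higher or lower when it passed 1.5-fold on that scale, and each count is read beside the percentage of all genes tested that did so. The 4 SK-hep1 comparisons share the mock library, and so do the 2 Mahlavu comparisons.

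With PSPC1, the members stayed close to mock. Of 43 members tested, 1 was higher, NDUFA12, and 1 was lower, UQCRQ, that is 2.33% each way, against 9.56% of 12410 genes higher and 8.66% lower. The median log2 fold change was 0.01 for the members and -0.03 for all genes tested. The members not tested here were NDUFA7, NDUFB8 and NDUFV2. NDUFA7 was under the minimum in every comparison, and NDUFB8, NDUFC2 or NDUFV2 in some.

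NDUFA12, an accessory subunit in the peripheral arm of complex I, stood at 199 FPKM in SK-hep1 mock and at 356, 303, 333 and 285 FPKM in the 4 overexpressing libraries, all above mock. Its log2 fold change was 0.78 with PSPC1 (reads ratio 1.79, exact interval 1.70 to 1.88), 0.66 with PSPC1/PTK6, 0.69 with PSPC1-Y523F and 0.48 with PSPC1-Y523F/PTK6. The call with PSPC1/PTK6 was lost with read counts scaled by the TMM method, at 0.43. In Mahlavu it was at 81.4, 50.4 and 74.6 FPKM and in Huh-7 at 108 and 94.6 FPKM.

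UQCRQ, a small subunit of complex III, was at 95.1 FPKM in SK-hep1 mock and at 56.7, 54.6, 50.2 and 63.3 FPKM in the overexpressing libraries. All 4 were below mock. The log2 fold change was -0.68 with PSPC1 (reads ratio 0.597, interval 0.542 to 0.656), -0.83 with PSPC1/PTK6 and -0.88 with PSPC1-Y523F. In Mahlavu it was at 99.0, 76.8 and 83.4 FPKM, and in Huh-7 at 25.9 and 27.1 FPKM.

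Other members moved less with PSPC1. NDUFA10, an accessory subunit of complex I, was at 87.3, 117, 65.7, 87.2 and 81.8 FPKM in SK-hep1, highest with PSPC1 and lowest with PSPC1/PTK6. It was at 114, 99.6 and 101 FPKM in Mahlavu and at 65.5 and 65.0 FPKM in Huh-7. NDUFA3 was at 92.5, 123, 117, 85.3 and 136 FPKM in SK-hep1, 54.3, 53.4 and 52.9 FPKM in Mahlavu and 68.1 and 77.0 FPKM in Huh-7, and its log2 fold changes were 0.42 with PSPC1 and 0.55 with PSPC1-Y523F/PTK6. NDUFB9 was at 123 FPKM in mock and at 80.1, 96.9, 91.8 and 95.7 FPKM in the overexpressing SK-hep1 libraries, with a log2 fold change of -0.55 with PSPC1. It was at 136, 117 and 116 FPKM in Mahlavu and at 93.6 and 82.4 FPKM in Huh-7.

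With PSPC1/PTK6, 5 of 44 members were lower (11.4%, against 12.8% of 12436 genes) and 1 was higher (2.27%, against 12.4%). The lower members were UQCRQ, NDUFS6, NDUFC2, NDUFB7 and NDUFB2, and NDUFA12 was the higher one. The share of lower members depended on the scaling. With TMM-scaled counts 9 were lower (20.5%, against 12.7% of all genes) and 1 was higher, and after length and GC content were taken out 7 were lower (15.9%, against 12.1%) and 0 were higher. Without quantile normalization the split was 3 lower (6.82%, against 7.61%) and 3 higher (against 21.1%), and the median of all genes was then 0.15 in place of -0.04. The median of the members was -0.10, which is 0.06 below that of all genes, and it was 0.13 below with FPKM as deposited and 0.15 below with TMM-scaled counts.

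NDUFS6, an accessory subunit next to the NADH-oxidizing part of complex I, was at 425, 316, 244, 258 and 323 FPKM in SK-hep1, with mock highest. It was at 286, 315 and 246 FPKM in Mahlavu and at 66.5 and 66.0 FPKM in Huh-7. Its log2 fold change was -0.70 with PSPC1/PTK6 (reads ratio 0.574, interval 0.550 to 0.598) and -0.68 with PSPC1-Y523F. NDUFC2, one of the 9 members with few counted reads, was at 1.76, 1.26, 1.14, 2.01 and 1.26 FPKM in SK-hep1, 1.80, 1.16 and 1.02 FPKM in Mahlavu and 7.78 and 6.30 FPKM in Huh-7. Its reads ratio of 0.646 with PSPC1/PTK6 had an interval of 0.397 to 1.04, which includes no change. SDHD had a log2 fold change of 0.57 there, just under the 1.5-fold line, and UQCRFS1 one of 0.36.

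With PSPC1-Y523F, more members were lower. Of 43 tested, 7 were at least 1.5-fold lower (16.3%, against 9.33% of 12382 genes) and 1 was higher (2.33%, against 9.33%). The lower ones were NDUFB7, UQCRQ, SDHB, NDUFS6, NDUFS4, NDUFB1 and NDUFB10. The median was -0.15 for the members and -0.01 for all genes. Complex I had a median of -0.15 with 5 of 32 lower, complex II -0.18 with 1 of 4 lower and complex III -0.20 with 1 of 7 lower. Over the other 11 settings the count ranged from 6 to 9 lower at 1.5-fold, and none passed 2-fold. With TMM-scaled counts 20.9% of the members were lower, against 11.1% of all genes, and after length and GC content were taken out 14.0% were, against 8.84%.

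NDUFB7, an accessory subunit of the membrane arm, was at 196, 152, 118, 102 and 177 FPKM in SK-hep1, lowest with PSPC1-Y523F. It was at 164, 184 and 143 FPKM in Mahlavu and at 127 and 126 FPKM in Huh-7. The log2 fold change was -0.89 with PSPC1-Y523F (reads ratio 0.521, interval 0.485 to 0.560) and -0.66 with PSPC1/PTK6. NDUFS4, an accessory subunit whose loss is a known cause of complex I deficiency, was at 43.3, 30.7, 44.8, 26.1 and 32.7 FPKM in SK-hep1, 48.8, 25.9 and 37.8 FPKM in Mahlavu and 35.5 and 43.9 FPKM in Huh-7. NDUFB1 had a log2 fold change of -0.64 and NDUFB10 one of -0.61. The 2 largest rises after NDUFA12 were NDUFA11 at 0.40 and NDUFA13 at 0.36, on 98 and 48 reads, with intervals of the reads ratio that include 1.

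With PSPC1-Y523F/PTK6, 2 of 44 members were lower (4.55%, against 7.10% of 12412 genes), SDHB and UQCRH, and 0 were higher (against 8.19%). With TMM-scaled counts the split was 1 lower and 2 higher. The median was -0.07 for the members and -0.04 for all genes.

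SDHB carries the iron-sulfur clusters that pass electrons from succinate to ubiquinone. It was at 166, 111, 180, 92.0 and 87.0 FPKM in SK-hep1, so that the 2 PSPC1-Y523F libraries were lowest and mock and PSPC1/PTK6 highest. It was at 131, 108 and 141 FPKM in Mahlavu and at 96.8 and 95.4 FPKM in Huh-7. The log2 fold change against mock was -0.53 with PSPC1, -0.81 with PSPC1-Y523F (reads ratio 0.556, interval 0.520 to 0.594) and -0.84 with PSPC1-Y523F/PTK6 (0.526, interval 0.493 to 0.561). With PTK6 added to PSPC1, SDHB was higher by 0.68, and with PSPC1-Y523F/PTK6 against PSPC1/PTK6 it was lower, at -0.99.

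UQCRH, which helps complex III to dock with cytochrome c, was at 430, 403, 303, 313 and 264 FPKM in SK-hep1, 364, 208 and 343 FPKM in Mahlavu and 212 and 223 FPKM in Huh-7. The log2 fold change with PSPC1-Y523F/PTK6 was -0.71, and it was -0.57 with TMM-scaled counts, short of the 1.5-fold line. UQCRC2 was at 104, 106, 118, 70.3 and 67.5 FPKM in SK-hep1, 239, 155 and 299 FPKM in Mahlavu and 135 and 136 FPKM in Huh-7. Both PSPC1-Y523F libraries were below the other 3 SK-hep1 libraries. NDUFS8, a core iron-sulfur subunit, was at 196, 226, 199, 179 and 267 FPKM in SK-hep1, 208, 215 and 191 FPKM in Mahlavu and 376 and 368 FPKM in Huh-7.

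**Figure D3:**
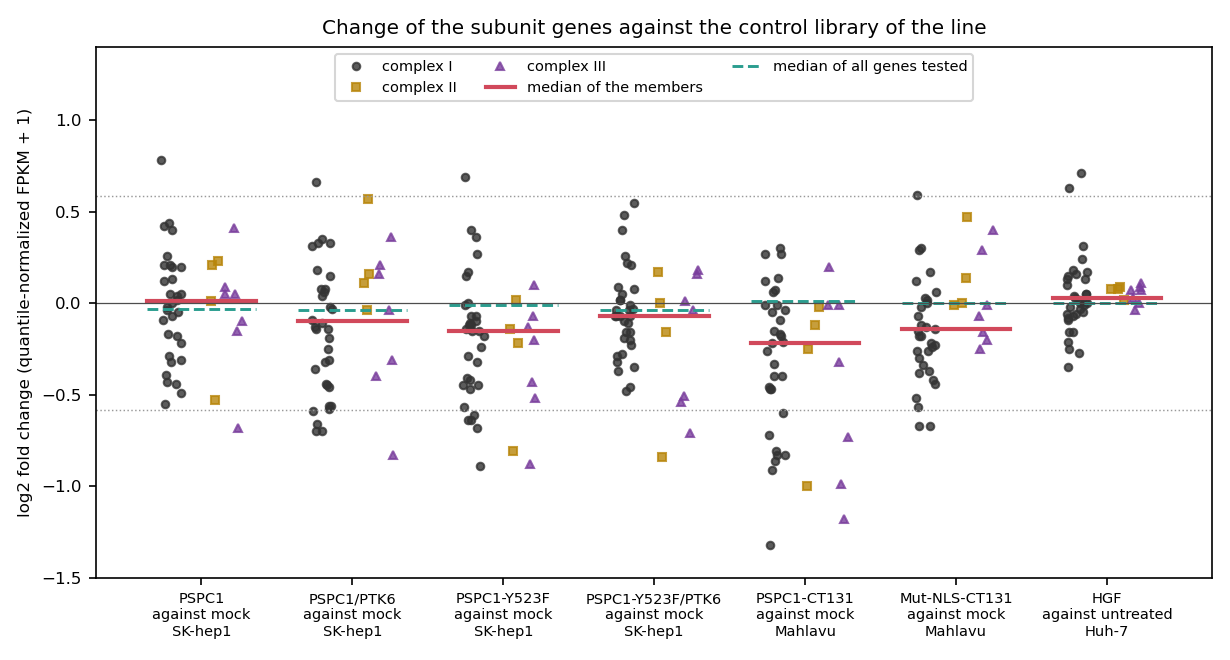
log2 fold change of each member tested, by comparison with the mock or untreated library of the line, with symbols for the complexes, solid lines for the median of the members, dashed lines for the median of all genes and dotted lines at 1.5-fold. The members lie lowest in the PSPC1-CT131 library, with a median of -0.22, and closest together with HGF.

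Setting the SK-hep1 libraries side by side, PTK6 added to PSPC1 left 2 of 45 members lower, NDUFA10 and NDUFS7 (against 7.34% of 12391 genes), and 1 higher, SDHB (against 8.09%). PTK6 added to PSPC1-Y523F left NDUFB7 and NDUFA3 higher (against 10.4% of 12398 genes) and NDUFA6 lower (against 9.28%) among 44. PSPC1-Y523F against PSPC1 had NDUFB1 and NDUFB7 lower (against 9.23% of 12389 genes) and 0 of 44 members higher (against 8.77%). The median there was -0.23 for the members against 0.01 for all genes. The other scalings and the fit on length and GC content were not run for these side-by-side comparisons within SK-hep1. With PTK6 in both, the mutant against wild type had NDUFS7 and NDUFB2 higher (against 11.8% of 12429 genes) and SDHB and UQCRC2 lower (against 11.3%), and the median was 0.03. PSPC1 itself was at 7.01 FPKM with PSPC1, 26.4 with PSPC1/PTK6, 2.28 with PSPC1-Y523F and 70.9 with PSPC1-Y523F/PTK6. The libraries set side by side thus also differed in PSPC1 level, and its part was not tested.

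In Mahlavu, the library labelled PSPC1-CT131 had more lower than higher members. Of 43 tested, 12 were at least 1.5-fold lower (27.9%, against 12.3% of 12415 genes) and 0 were higher (against 11.2%). The 12 were NDUFB3, UQCRB, SDHD, UQCRH, NDUFA1, NDUFA5, NDUFB5, NDUFA6, NDUFS5, UQCRC2, NDUFS4 and NDUFA12. The first 3 of these were at least 2-fold lower, against 3.16% of all genes. The median was -0.22 for the members and 0.01 for all genes, with -0.22 in complex I, -0.18 in complex II and -0.32 in complex III. This excess over all genes depended on the scaling. With FPKM as deposited 30.2% of the members and 25.9% of all genes were lower, the median of all genes being -0.24, and with TMM-scaled counts 14.0% of the members and 12.8% of all genes were. The median of the members lay 0.23 below that of all genes after quantile normalization, 0.10 below as deposited and 0.07 below with TMM.

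NDUFB3, an accessory subunit of the membrane arm, was at 88.0 FPKM in Mahlavu mock, 32.8 FPKM in PSPC1-CT131 and 77.4 FPKM in Mut-NLS-CT131. In SK-hep1 it was at 33.3, 33.5, 35.9, 30.5 and 30.1 FPKM, and in Huh-7 at 69.8 and 70.4 FPKM. The log2 fold change with PSPC1-CT131 was -1.32 (reads ratio 0.372, interval 0.330 to 0.419) and stayed at -1.11 with TMM-scaled counts. UQCRB, the binding-protein subunit of complex III, was at 72.1, 28.8 and 67.8 FPKM in Mahlavu, 32.8, 34.7, 39.7, 28.9 and 29.8 FPKM in SK-hep1 and 63.7 and 68.1 FPKM in Huh-7. Its log2 fold change was -1.18 (reads ratio 0.399, interval 0.371 to 0.430) and -1.0 with TMM. SDHD, whose values are given above, was at -1.0 (reads ratio 0.440, interval 0.392 to 0.493) and at -0.86 with TMM. UQCRH was at -0.99 and UQCRC2 at -0.73, and both fell short of 1.5-fold with TMM, at -0.51 and -0.32. The highest members were NDUFV3, an accessory subunit, at 0.30, NDUFS7 at 0.27 and NDUFA13 at 0.27. NDUFV3 was at 12.7, 11.4, 14.1, 14.6 and 13.5 FPKM in SK-hep1, 12.1, 11.4 and 9.52 FPKM in Mahlavu and 12.7 and 14.3 FPKM in Huh-7.

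GC content moved with the change in this library. Across 12402 genes tested, Spearman's correlation between log2 fold change and GC content of the longest transcript was 0.57, and across the 43 members it was 0.55. These are correlations across genes of the same 2 libraries, and genes are not replicates. The 12 lower members had a median GC content of 44.8% and the other 31 one of 50.5%. Of the 13 members under 45% GC, 6 were lower, against 24.9% of all genes under 45%, and of the 30 with more, 6 were lower, against 4.93% of all such genes. After a fit on length and GC content, 9 of 43 were lower (20.9%), against 7.0% of all genes. NDUFB3, UQCRB and SDHD were then at -1.06, -0.77 and -0.65. In the other 6 comparisons with a control, this correlation across all genes lay between -0.10 and 0.25. The part of GC content in the change was not tested beyond this. By GC content the members, at a median of 48.5%, were close to all genes at 49.1%. The lengths behind their FPKM were shorter, with a median of 784 against 1509 bases.

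**Figure D4:**
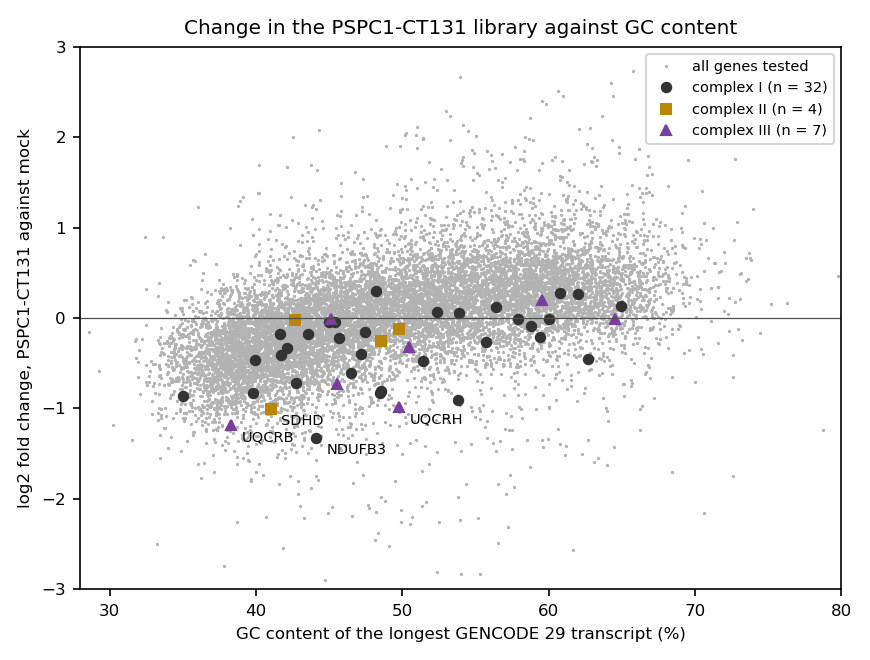
log2 fold change in the PSPC1-CT131 library against the GC content (%) of the longest transcript, with grey points for all genes tested and symbols for the members by complex, 11 genes lying outside the axes. Members and other genes of low GC content lie lower, and NDUFB3, UQCRB, SDHD and UQCRH are at the bottom of the members.

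The library labelled Mut-NLS-CT131 had 2 of 43 members lower, NDUFA11 and NDUFB2 (4.65%, against 11.3% of 12425 genes), and 1 higher, NDUFV2 (2.33%, against 11.1%). NDUFA11 was at 3.19, 3.47, 3.79, 4.12 and 2.59 FPKM in SK-hep1, 5.36, 2.51 and 2.42 FPKM in Mahlavu and 8.40 and 10.1 FPKM in Huh-7. NDUFB2 was at 47.0, 40.0, 32.9, 32.9 and 47.2 FPKM in SK-hep1, 40.8, 34.5 and 25.0 FPKM in Mahlavu and 37.9 and 35.7 FPKM in Huh-7. Exons of another gene covered 37.81% and 45.24% of their coding bases, and without the members overlapped over at least 30% the count was 0 each way. NDUFV2 was at 0.366, 0.940, 0.929, 0.601 and 0.261 FPKM in SK-hep1, 1.19, 0.560 and 1.99 FPKM in Mahlavu and 5.23 and 3.95 FPKM in Huh-7, and its reads ratio of 1.68 on 24 and 17 reads had an interval of 0.865 to 3.33. After quantile normalization it was at 0.715 FPKM in mock and 1.58 FPKM in Mut-NLS-CT131. It passed the minimum mean of 1 FPKM only through the library where it was higher, so it could enter this comparison only as a rise. SDHA was at 0.47 and UQCRC1 at 0.40. UQCRC1, a core protein of complex III, was at 356, 371, 325, 305 and 387 FPKM in SK-hep1, 292, 352 and 391 FPKM in Mahlavu and 309 and 321 FPKM in Huh-7. The median of the members was -0.14 against 0.00 for all genes, and it turned to 0.03 with TMM-scaled counts, against 0.05 for all genes.

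PSPC1-CT131 set directly beside Mut-NLS-CT131 had 10 of 43 members lower (23.3%, against 15.2% of 12453 genes) and 2 higher, NDUFA13 and NDUFB2 (4.65%, against 14.9%). Of the 10, NDUFA5, NDUFB3, UQCRB, UQCRC2 and SDHD were at least 2-fold lower, against 4.59% of all genes. NDUFV2 was also among the 10. With 0.512 quantile-normalized FPKM in PSPC1-CT131, it again passed the minimum only through Mut-NLS-CT131 and could enter only as a fall. The accessory subunit NDUFA5 was at 33.5, 15.1 and 38.9 FPKM in the 3 Mahlavu libraries. GC content moved with the change here as well, with a Spearman's correlation of 0.57 across 12440 genes and 0.56 across the 43 members. The part of GC content in this comparison was not tested. The other scalings and the fit on length and GC content were not run for it.

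With HGF, few members differed. Of 45 tested, 2 were higher (4.44%, against 1.81% of 14262 genes) and 0 were lower (against 1.45%), and the median was 0.03 against 0.00 for all genes. The higher ones were NDUFS7 and NDUFA13, both among the 9 with few counted reads. NDUFS7 was at 1.35 and 2.91 FPKM in Huh-7, on 36 and 72 reads, with a reads ratio of 2.15 (interval 1.42 to 3.30). It was at 2.27, 2.71, 1.78, 2.10 and 2.54 FPKM in SK-hep1 and at 3.20, 2.83 and 3.48 FPKM in Mahlavu. NDUFA13, also known as GRIM-19, was at 4.28 and 7.20 FPKM in Huh-7 on 53 and 83 reads (reads ratio 1.68, interval 1.18 to 2.42), 2.32, 1.96, 1.83, 3.01 and 1.96 FPKM in SK-hep1, and 3.32, 2.94 and 1.46 FPKM in Mahlavu. Without the members overlapped over at least 30% of their coding bases, 0 were higher. NDUFS4 was next at 0.31. The lowest were NDUFV2 at -0.35, NDUFC2 at -0.27 and NDUFB8 at -0.25, each with an interval of the reads ratio that includes 1. NDUFB8 was at 2.23 and 1.77 FPKM in Huh-7, 0.733, 0.629, 1.66, 0.603 and 0.982 FPKM in SK-hep1 and 0.771, 0.963 and 0.750 FPKM in Mahlavu.

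**Figure D5:**
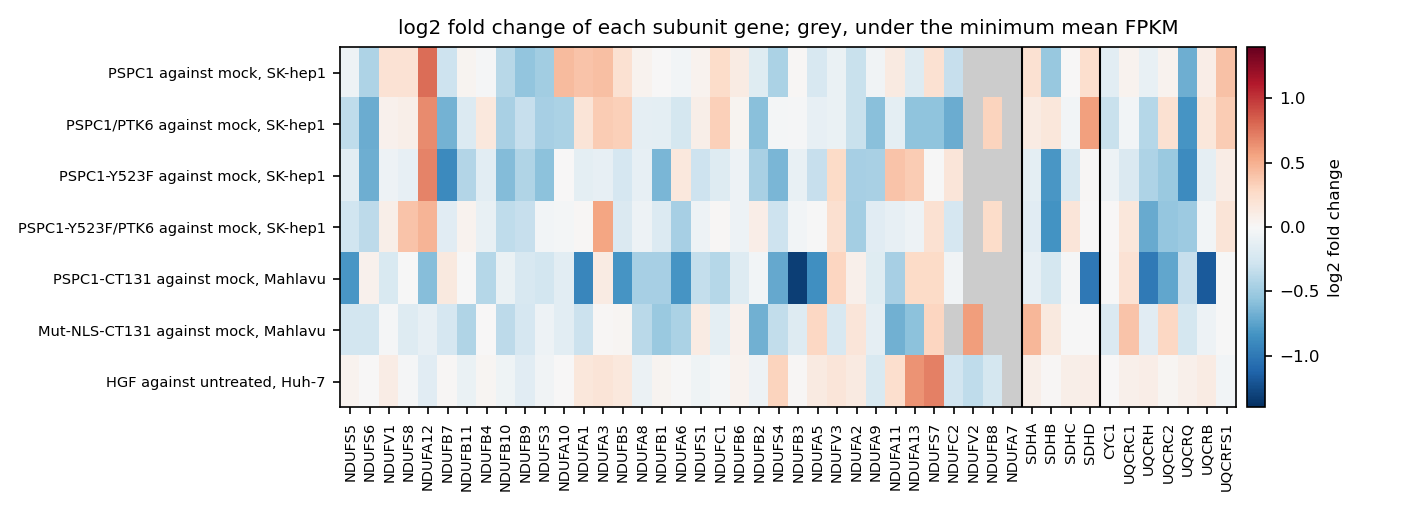
log2 fold change (colour scale) of each member in each of the 7 comparisons with a control library, with members in columns by complex and grey where the mean was under 1 FPKM. NDUFA12 is the strongest red in the first 3 SK-hep1 rows, and NDUFB3, UQCRB and SDHD are the deepest blue in the PSPC1-CT131 row.

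The lines themselves were set side by side next. With quantile-normalized FPKM, all 3 Mahlavu libraries were above all 5 SK-hep1 libraries for 10 of 43 members tested (23.3%, against 22.7% of 12902 genes) and below for 5 (11.6%, against 25.7%). In complex II, SDHA, SDHC and SDHD were above, with a median difference over its 4 members of 0.86 on the log2 scale. The largest difference upward was NDUFB5 at 1.77, from 32.7 to 49.1 in SK-hep1 and 92.3 to 168 quantile-normalized FPKM in Mahlavu. The largest downward was NDUFA12 at -2.16, from 199 to 343 in SK-hep1 and 48.7 to 74.6 in Mahlavu. The 10 above were CYC1, NDUFS3, NDUFA8, SDHC, NDUFA6, NDUFS1, SDHA, UQCRC2, SDHD and NDUFB5, and the 5 below were NDUFA12, NDUFA3, NDUFB10, NDUFA9 and NDUFV3. The overexpressing libraries were pooled with their mock here.

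The range of each member over the libraries was compared with that of all genes, as a description. On the scale of quantile-normalized log2(FPKM + 1), over the 5 SK-hep1 libraries the median range was 0.55 for 44 members and 0.66 for 12449 genes, and over the 8 SK-hep1 and Mahlavu libraries it was 0.99 for 43 members and 1.28 for 12902 genes. NDUFA12 had the largest range over the 8, 2.79, and NDUFB6, an accessory subunit of the membrane arm, the smallest, 0.34, both on that scale. As deposited, without quantile normalization, NDUFB6 was at 33.6, 36.4, 37.9, 31.8 and 30 FPKM in SK-hep1, 48.2, 37.9 and 48.5 FPKM in Mahlavu and 42.3 and 43.6 FPKM in Huh-7. Within SK-hep1, SDHB had the largest quantile-normalized range, 0.99, and NDUFB3 the smallest, 0.11.

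Genes that work beside the members were counted in the same way and in the same 7 comparisons. These lists were counted after quantile normalization only, and the other scalings and the fit on GC content were not run for them. For the members themselves, the share lower with PSPC1-CT131 came to 14.0% with TMM-scaled counts, against 12.8% of all genes. The 8 mitochondrially encoded subunits of complexes I and III differed most from the nuclear ones: 7 of 8 were higher with PSPC1 (against 9.56% of all genes), 5 with PSPC1/PTK6 (against 12.4%), 8 with PSPC1-Y523F (against 9.33%) and 5 with PSPC1-Y523F/PTK6 (against 8.19%). MT-CYB, cytochrome b of complex III, was at 7.76, 369, 12, 34.5 and 345 FPKM in SK-hep1 (log2 fold change 5.16 with PSPC1). Only MT-ND5 and MT-ND6 moved in that way, from 4.84 and 5.89 FPKM in mock to 162 and 159 FPKM with PSPC1. The others stood at 86.1 to 822 FPKM in mock and at 132 to 1650 FPKM with PSPC1. In the PSPC1-CT131 library 6 of the 8 were lower (against 12.3% of all genes), and MT-ND3 was at -1.62. Of 5 further nuclear subunits of complexes I and III, 0 were higher in any comparison (against 1.81% to 12.4% of all genes). At most 1 was lower (20.0%, against 7.10% to 12.8% of all genes in the comparisons where it was so). The extremes were UQCR11 at 0.31 and NDUFA4 at -0.78, both with PSPC1-Y523F/PTK6.

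Complex IV, cytochrome c oxidase, had 3 of 10 nuclear subunits lower with PSPC1-Y523F (against 9.33% of all genes) and 4 of 10 lower with PSPC1-CT131 (against 12.3%), with a median of -0.38 in each. COX7B was the lowest, at -1.5 with PSPC1-CT131, and COX6C the highest, at 0.40 with PSPC1. Complex V, the ATP synthase, had 5 of 16 lower (31.2%) in each of those comparisons, with medians of -0.36 and -0.52. ATP5ME reached -1.16 with PSPC1/PTK6 and ATP5F1C 0.49 in the same library. In both complexes 0 subunits were higher in any of the 7 comparisons (against 1.81% to 12.4% of all genes). The 26 assembly factors had at most 4 lower, with PSPC1-CT131 (15.4%, against 12.3% of all genes). At most 2 were higher, with PSPC1, PSPC1/PTK6 and PSPC1-Y523F/PTK6 (7.69% to 8.0%, against 8.19% to 12.4% of all genes). LYRM7, an assembly factor of complex III, was at -1.01 with PSPC1-CT131 and SDHAF4 at 1.46 with Mut-NLS-CT131.

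Of 16 electron donors and carriers, at most 3 were lower, with PSPC1-Y523F (18.8%, against 9.33% of all genes) and with PSPC1-CT131 (18.8%, against 12.3%). At most 2 were higher, with PSPC1/PTK6 (12.5%, against 12.4%). PDSS1, an enzyme of ubiquinone synthesis, was at -1.24 with PSPC1 and SQOR at 1.15 with PSPC1/PTK6. Of 13 enzymes of the tricarboxylic acid cycle, 3 were lower with PSPC1-CT131 (23.1%, against 12.3% of all genes), led by DLD at -0.94. Elsewhere at most 1 was lower, with PSPC1-Y523F/PTK6 (7.69%, against 7.10%), while SUCLG2 was at 0.61 with Mut-NLS-CT131. Among 11 regulators of respiratory gene transcription 4 were lower with PSPC1-CT131 (36.4%, against the same 12.3%). PPARGC1A, a coactivator of mitochondrial biogenesis, was at -1.74 there. Its FPKM is not given here, so whether it passed the minimum only through mock is left unsettled. Of the regulators, 2 of 10 tested were lower with PSPC1 (20.0%, against 8.66%) and with PSPC1/PTK6 (20.0%, against 12.8%). With Mut-NLS-CT131 2 of 11 were lower (18.2%, against 11.3%), and in the remaining comparisons 0 were. Higher ones numbered 0 in every comparison (against 1.81% to 12.4% of all genes), ESRRA reaching 0.54 with PSPC1-Y523F. Of 78 mitochondrial ribosomal proteins, 14 of the 76 tested were lower with PSPC1-CT131 (18.4%, against 12.3%) and 4 with Mut-NLS-CT131 (5.26%, against 11.3%), MRPL1 being at -1.30 in both. In SK-hep1, 7, 9, 6 and 7 were lower in the 4 overexpressing libraries (7.79% to 11.5%, against 7.10% to 12.8% of all genes), and MRPS24 was at 1.19 with PSPC1/PTK6. Of 6 paralogs of restricted expression, 1 was tested in each comparison, and the values ran from -0.27 for NDUFA4L2 with Mut-NLS-CT131 to 1.93 for COX6B2 with PSPC1/PTK6. The gene tested differed: COX6B2 with PSPC1 and PSPC1/PTK6, COX7A1 with PSPC1-Y523F and NDUFA4L2 in the rest. A gene near the minimum of 1 FPKM can pass it only through the library where it is higher. No direction is therefore read from these values.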

How the data were processed

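RNA-Seq tables of 10 libraries were used, 1 per condition. Per the labels and the submitters' processing notes, reads were aligned with TopHat2 2.0 to GRCh38.p12 and counted per gene with HTSeq 0.6.1, and edgeR is also named. The study's methods name another build (hg18), quantile normalization and rRNA depletion, whereas the labels describe poly-T selection. Of 58039 genes shared with GENCODE 29 (GRCh38), 97.6% had the same start and end. The deposited read counts were whole numbers per gene for SK-hep1 and Mahlavu. The deposited FPKM values of all 10 libraries were counts divided by library total and a length per gene, recovered here from counts and FPKM. This length could differ from the gene length given beside the counts. It was 824 against 1748 bases for NDUFV1 and 1392 against 3001 bases for SDHA, but 3475 bases in both for UQCRFS1. For Huh-7, whole reads were recovered from the FPKM (100% of values within 0.01 of a whole read).

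FPKM were quantile normalized over the 8 SK-hep1 and Mahlavu libraries and over the 2 Huh-7 libraries, and log2(FPKM + 1) differences were taken where the mean of both libraries was 1 FPKM or more. The pseudocount understates the change of low genes. Members were counted at 1.5-fold, and 2-fold as an alternative. Levels carry Wilson intervals and read ratios exact conditional binomial intervals. The scripts were tested on simulated data. Python 3.11.15, pandas 2.3.3, scipy 1.17.1, R 4.3.3 and edgeR 4.0.16 (TMM factors only) were used. The members and the pathway lists were chosen with earlier results of these data known. Values are printed in every library for members of highest or lowest median FPKM in each complex, the 3 largest rises and falls of each of the 7 main comparisons, members past 2-fold, and those of largest and smallest range, and for each pathway list the largest rise and fall. For the low members NDUFA2 and NDUFA9 medians only were used, and other members are named where they passed 1.5-fold. Other settings were another pseudocount (0.1 or 5), other scalings, other filters, fits on length and GC content, and, chosen after seeing the data, leaving out members overlapped over at least 30% of their coding bases.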

Additional observations from a re-analysis of the deposited data

How the results depend on the processing

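Over up to 12 other settings for each of the 7 comparisons with a control, 195 values stayed within the range set for agreement and 47 moved. Counts are of members at least 1.5-fold higher or lower. The sign of some small medians changed: with PSPC1 from 0.01 to -0.03 (FPKM as deposited), -0.05 (common sum) and -0.04 (length taken out), with PSPC1/PTK6 from -0.10 to 0.02 (as deposited) and 0.01 (common sum), and with Mut-NLS-CT131 from -0.14 to 0.03 (TMM-scaled counts). A call at 2-fold left 0 members either way in every comparison except PSPC1-CT131, where 3 were lower. With FPKM as deposited, members lower numbered 2 with PSPC1 and 4 with PSPC1-Y523F/PTK6, PSPC1/PTK6 had 3 lower and 3 higher, Mut-NLS-CT131 had 0 higher, and the median with PSPC1-CT131 was -0.34. With FPKM scaled to a common sum these were 3, 6, 3 and 3, 0 and -0.35. With TMM-scaled counts PSPC1/PTK6 had 9 lower (20.5%, against 12.7% of all genes), PSPC1-Y523F/PTK6 1 lower (2.33%, against 6.96%) and 2 higher (against 9.90%), and PSPC1-CT131 6 lower (14.0%, against 12.8%) with a median of -0.05, and PSPC1-CT131 then had fewer lower members than PSPC1/PTK6 or PSPC1-Y523F (9 each). With a pseudocount of 0.1, PSPC1/PTK6 had 8 lower and 2 higher. With a pseudocount of 5 it had 3 lower, Mut-NLS-CT131 had 1 lower and 0 higher, and HGF 0 higher. Normalization within each line gave 2 higher with PSPC1/PTK6. Taking out length gave 2 lower with PSPC1 and 0 higher with PSPC1/PTK6, and taking out length and GC content gave 0 higher with PSPC1/PTK6 and with Mut-NLS-CT131. With a minimum mean of 5 FPKM, Mut-NLS-CT131 had 1 lower and 0 higher and HGF 1 higher. Without the members overlapped over at least 30% of their coding bases, a setting chosen after seeing the data, PSPC1/PTK6 had 3 lower, Mut-NLS-CT131 0 lower and 0 higher, and HGF 0 higher. Where fewer members were tested, the smaller number is part of the change, and otherwise the cause was not tested. TMM scaling was not run for Huh-7. Leaving out a replicate could not be run, and no paired analysis was possible because each condition has 1 library. Differences between libraries therefore include any difference between cultures and preparations, and the depth limits members with few reads, such as NDUFA7.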
